A study of Mus musculus with 32 samples.

Results

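The 9 genes of lipoprotein lipase action and cellular fatty acid uptake followed across the 8 groups of the study were Lpl, Gpihbp1, Lmf1, Angptl4, Angptl8, Vldlr, Cd36, Fabp4 and Fabp5. They are a list named by symbol, 9 of the 47643 gene IDs in the count table, chosen with earlier results of these data known; the rule itself holds names only and no measured value. All 9 passed the filter on low counts in both tissues.

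Lipoprotein lipase, the product of Lpl, releases fatty acids from circulating triglyceride-rich lipoproteins at the surface of capillaries. It is made in adipocytes and muscle cells, folds in the endoplasmic reticulum with the help of the maturation factor Lmf1, and is carried across the endothelium and held there by Gpihbp1. Secreted proteins of the angiopoietin-like family, among them Angptl4 and Angptl8, restrain it, and the released fatty acids are taken up with the help of Cd36 and bound inside cells by proteins such as Fabp4 and Fabp5. Adipose tissue is a main site of this enzyme, whereas adult hepatocytes express little of it.

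The samples were epididymal white adipose tissue (eWAT) and liver of male C57BL/6 mice aged 10 weeks, given corticosterone (cort) or its ethanol vehicle (veh) in the drinking water for 7 days together with 1 of the study's 2 diets. The normal protein diet (NPD) held 20% and the high protein diet (HPD) 60% of its energy as protein, with less starch in the HPD. Each of the 4 groups per tissue (Veh NPD, Veh HPD, Cort NPD, Cort HPD) had 4 libraries, 32 in all, sequenced by a method that reads the 3′ end of each transcript, so that a count does not grow with transcript length. The labels number the libraries without saying that each is a separate animal, so p-values measure the spread between these libraries.

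Library totals ran from 9794683 to 18057936 counts in eWAT and from 8933307 to 17447524 in liver. The defining markers fitted the tissue labels: Adipoq, the adipocyte hormone adiponectin, ran from 3680 to 10100 CPM (counts scaled to a common library size) in eWAT and from 0.233 to 3.48 CPM in liver, and Alb, serum albumin, ran from 33600 to 202000 CPM in liver and from 31.4 to 84.2 CPM in eWAT. The library liver Veh HPD replicate 4 was left out of the fits by the rule that came with the list, which leaves 15 liver libraries. It held 183 CPM of Lpl. In eWAT, Cort HPD replicate 4 held 4460 CPM of 8 summed epididymis and testis markers, and the 4 Cort HPD libraries held 12700 to 25900 CPM of red blood cell markers, against 3620 to 9270 CPM in the other 3 groups. Levels are given as CPM scaled within each tissue (trimmed mean of M-values, TMM), and a gene is called changed at an adjusted p under 0.05 by edgeR's quasi-likelihood test with Benjamini-Hochberg adjustment over all genes tested.

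RefSeq (GRCm38.p6) promoter windows, from 250 bases before to 50 after a listed start, were at hand for Cd36, Vldlr, Angptl8 and Lmf1. Each was searched on both strands for AGAACA, 1 arm of a glucocorticoid response element, and AGGTCA, 1 arm of an element bound by PPARs and other nuclear receptors, which do not overlap each other. Cd36 and Vldlr are shown because they held a match, with the matches in capitals. The Cd36 window (chr5:17835847-17836146, minus strand) held AGGTCA once, as its reverse complement TGACCT, at position -228 from the start. The first Vldlr window (chr19:27216234-27216533, plus strand) held AGAACA in 2 places, both as TGTTCT, at positions -18 and 25. The second Vldlr window (chr19:27216770-27217069, plus strand), not shown, held neither motif. The letters AGAACA stood in 19% and AGGTCA in 16.3% of all 32851 windows, and a match describes the sequence only.
Cd36: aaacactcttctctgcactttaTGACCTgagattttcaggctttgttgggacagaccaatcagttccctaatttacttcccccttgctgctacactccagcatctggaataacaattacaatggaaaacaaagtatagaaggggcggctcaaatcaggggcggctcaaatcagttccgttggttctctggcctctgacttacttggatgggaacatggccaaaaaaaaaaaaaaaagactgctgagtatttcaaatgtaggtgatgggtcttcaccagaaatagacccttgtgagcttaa
Vldlr: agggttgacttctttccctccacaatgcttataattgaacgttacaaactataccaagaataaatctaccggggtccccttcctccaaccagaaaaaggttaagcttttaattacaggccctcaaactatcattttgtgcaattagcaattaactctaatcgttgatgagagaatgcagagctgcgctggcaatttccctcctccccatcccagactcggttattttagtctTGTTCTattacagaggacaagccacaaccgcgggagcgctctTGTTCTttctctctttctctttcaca

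Between 1 and 3 of the 9 genes were called for cort in each comparison within a tissue, and different ones were called in each tissue. In eWAT, Gpihbp1 was lower with cort on both diets and Vldlr was higher with cort on the HPD, so that 1 of 9 members was called on the NPD, where 7.98% of all tested genes were called, and 2 of 9 on the HPD, where 6.09% were. In liver, Cd36 was higher and Fabp5 lower with cort on both diets and Angptl4 was lower with cort on the HPD, which made 2 of 9 on the NPD against 12.6% of all genes and 3 of 9 on the HPD against 9.89%. The diets were compared within the veh mice and within the cort mice. In eWAT, Fabp5 was lower on the HPD in both, 1 of 9 members each, against 0.0593% of genes in veh mice and 0.487% in cort mice. In liver, no member was called in veh mice (0.169% of genes were by edgeR, 21 in all, and 113 genes by DESeq2, which called 0 members; 2 members, Cd36 and Angptl8, and 1165 genes had an unadjusted p under 0.05), and 2 of 9, Angptl4 and Angptl8, were called in cort mice (5.88% of genes). No member was called for an interaction of diet and cort by edgeR or by DESeq2, in eWAT (0.0132% of genes) or in liver (0.113%). The unadjusted p was under 0.05 for 1 member, Angptl4 in liver.

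**Figure D1:**
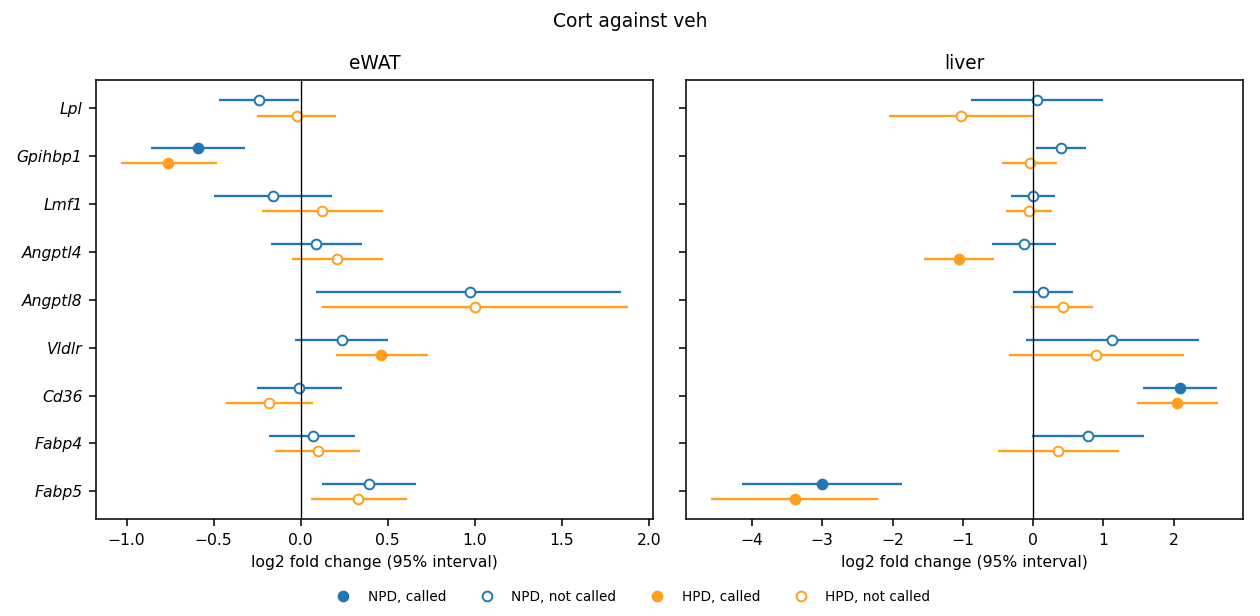
Log2 fold change of cort against veh for each gene in eWAT (left) and liver (right), on the NPD (upper point) and the HPD (lower point). Lines are 95% intervals, and filled points are called at an adjusted p under 0.05. Called values in eWAT are Gpihbp1 at -0.59 (NPD) and -0.76 (HPD), and Vldlr at 0.46 (HPD). Called values in liver are Cd36 at 2.09 (NPD) and 2.05 (HPD), Fabp5 at -3.01 (NPD) and -3.39 (HPD), and Angptl4 at -1.06 (HPD).

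Lpl (ENSMUSG00000015568, chr8:68880491-68907448, plus strand, GRCm38) was among the most abundant of the 9 transcripts in eWAT, at 8890 to 15500 CPM. Its level in the 4 Veh NPD libraries was 14200, 14000, 15500 and 15000 CPM, in Veh HPD 12400, 10200, 11100 and 10300 CPM, in Cort NPD 13000, 12900, 11300 and 12500 CPM, and in Cort HPD 11100, 12400, 10900 and 8890 CPM. The Veh NPD libraries were above all others, and the other 3 groups overlapped. None of the differences was called. In veh mice the HPD differed from the NPD by -0.42 on the log2 scale (95% interval -0.64 to -0.19, adjusted p = 0.21), and the cort effect on the NPD was -0.24 (interval -0.47 to -0.01, adjusted p = 0.24). DESeq2, in contrast, called the diet difference in veh mice, at the same -0.42 (adjusted p = 0.0086). On the HPD, the interval of the cort effect ran from -0.25 to 0.20.

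In liver, Lpl was a low transcript. It lay at 25.4, 18.8, 25.9 and 14.3 CPM in Veh NPD, 26.2, 20.0 and 15.5 CPM in Veh HPD, 6.08, 12.3, 48.4 and 20.4 CPM in Cort NPD, and 11.3, 11.0, 7.34 and 10.8 CPM in Cort HPD. The Cort HPD libraries were all below the fitted Veh HPD libraries, without a call (log2 fold change -1.02, SE 0.52, adjusted p = 0.26). A fit of only those groups called it (-1.03, adjusted p = 0.013). With the left-out library (183 CPM) back in, the value was -2.56, also without a call (adjusted p = 0.067 by edgeR). The highest value, 48.4 CPM in Cort NPD replicate 3, came from the library with the highest sum of skeletal muscle markers, 478 CPM, where the other 14 fitted liver libraries held 1.13 to 42.3 CPM. The part of that tissue in the value was not tested. Without that library, the difference of HPD against NPD in cort mice went from -1.11 (adjusted p = 0.22) to -0.35 (adjusted p = 0.62).

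Gpihbp1 (ENSMUSG00000022579, chr15:75596628-75599481, plus strand), the capillary protein that carries and anchors the lipase, was lower in eWAT of cort mice on both diets. The Veh NPD libraries held 148, 189, 213 and 155 CPM and the Cort NPD libraries 122, 128, 122 and 96.6 CPM. On the HPD, the veh libraries held 171, 223, 154 and 159 CPM and the cort libraries 101, 116, 109 and 92.0 CPM. Every cort library was below every veh library. Mean levels were 176 ± 30.1 CPM (SD, n = 4) in Veh NPD, 177 ± 31.9 CPM in Veh HPD, 117 ± 13.9 CPM in Cort NPD and 104 ± 10.5 CPM in Cort HPD. The cort effect, as a log2 fold change with an SE of 0.14 on either diet, was -0.59 for NPD mice (adjusted p = 0.0070) and -0.76 for HPD mice (adjusted p = 0.00091). Without the library with epididymis markers the latter was -0.70 (adjusted p = 0.0035). The difference between these 2 effects was -0.17 (interval -0.55 to 0.22) and was not called. The diets differed by 0.00 in veh mice (interval -0.27 to 0.28) and -0.16 in cort mice (interval -0.44 to 0.11).

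Markers of endothelial cells, which make Gpihbp1, moved with it in eWAT. The summed level of 10 endothelial markers was 681 to 1230 CPM in Veh NPD, 651 to 924 CPM in Veh HPD, 591 to 636 CPM in Cort NPD and 509 to 696 CPM in Cort HPD. On the NPD, 4 of the 10 were called lower with cort (Cldn5, Tek, Ptprb and Cdh5), on the HPD 2 of 10 (Cldn5 and Ptprb), and none was called higher. Per 100 CPM of that list, Gpihbp1 had a median of 21.9 CPM in Veh NPD (range 17.3 to 27.3), 19.5 in Cort NPD (16.1 to 21.6), 23.6 in Veh HPD (18.5 to 25.0) and 17.1 in Cort HPD (16.3 to 19.8), and the ranges of cort and veh libraries overlapped on both diets. In whole tissue, fewer cells of a type and less RNA per cell cannot be told apart, and the part of the endothelial cells in the change of Gpihbp1 was not tested.

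**Figure D2:**
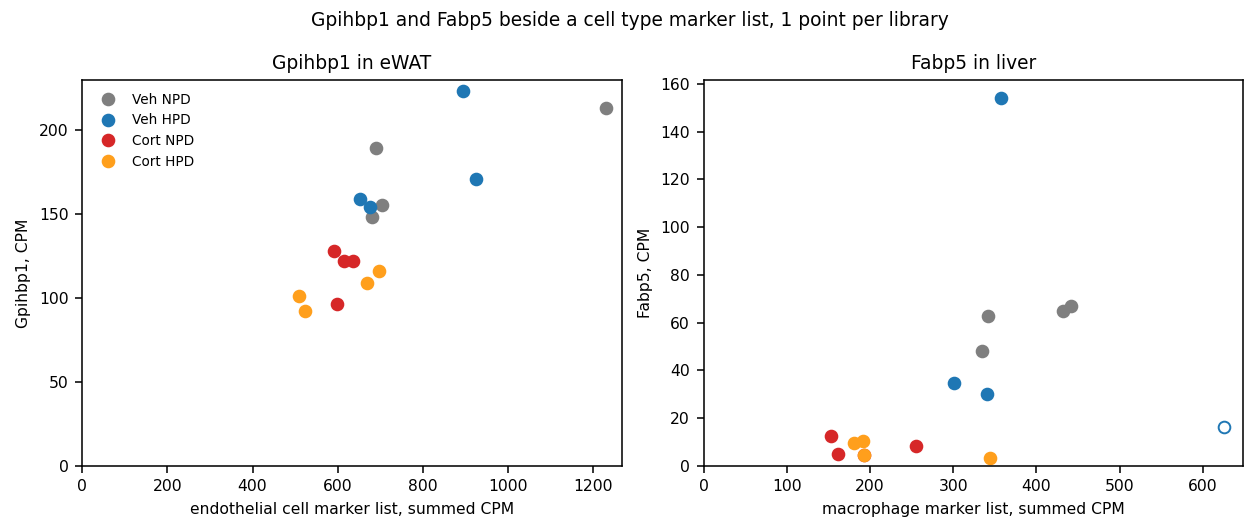
Left, Gpihbp1 in eWAT against the summed CPM of 10 endothelial markers; right, Fabp5 in liver against the summed CPM of 10 macrophage markers, 1 point per library and both axes in CPM. The cort libraries lie at 92.0 to 128 CPM of Gpihbp1 and at 3.39 to 12.3 CPM of Fabp5, and the open point in the right panel is the library left out of the fits.

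In liver, Gpihbp1 was at 10.1, 12.5, 14.2 and 15.8 CPM in Veh NPD and at 16.2, 17.3, 16.4 and 19.7 CPM in Cort NPD. These ranges did not overlap, but the difference was not called (log2 fold change 0.40, SE 0.18, adjusted p = 0.16). The HPD libraries ran from 11.6 to 20.1 CPM with veh and cort overlapping. Per 100 CPM of the endothelial list, Gpihbp1 was at 9.69 to 15.5 CPM in liver Veh HPD and 18.6 to 24.2 CPM in Cort HPD. On the NPD it was at 8.86 to 13.9 CPM with veh and 9.59 to 18.1 CPM with cort. With cort on the HPD, 5 of 10 endothelial markers were called lower in liver, and their part was not tested. The cort effect on Gpihbp1 on the NPD was 1.04 higher on the log2 scale in liver than in eWAT (SE 0.24, adjusted p = 0.0073).

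Lmf1 (ENSMUSG00000002279, chr17:25579085-25662826, plus strand), the folding factor of the lipase, ran from 15.6 to 24.2 CPM in eWAT and from 18.6 to 30.1 CPM in liver. Group means lay between 17.8 ± 1.86 CPM (Cort NPD) and 20.1 ± 1.69 CPM (Cort HPD) in eWAT, and between 20.5 ± 1.81 CPM (Cort HPD) and 23.6 ± 2.33 CPM (Veh NPD) in liver (SD, n = 4). Neighbouring groups in that order overlapped, and no comparison of cort or diet called it in either tissue. The 95% intervals of the cort effect reached from -0.50 to 0.47 over both diets in eWAT and from -0.39 to 0.31 in liver.

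**Figure D3:**
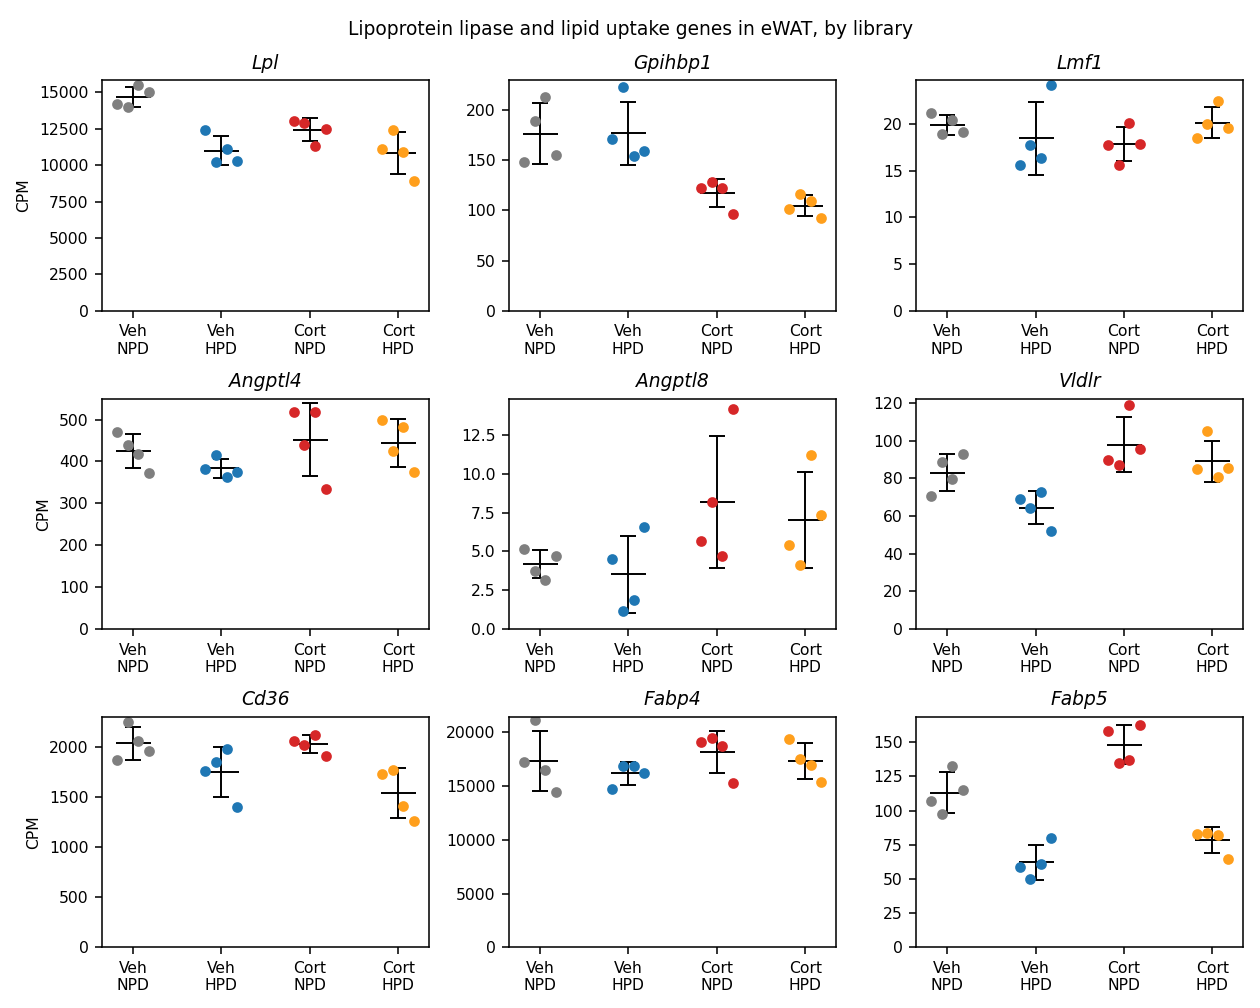
Level of each gene in eWAT in CPM (linear axes from 0), 1 point per library, with the mean and SD of each group in black. Gpihbp1 is lower in both cort groups, with every cort library at or below 128 CPM, and Fabp5 is lower in both HPD groups, with every HPD library at or below 83.9 CPM.

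Angptl4 (ENSMUSG00000002289, chr17:33773750-33781830, minus strand) encodes a secreted inhibitor of lipoprotein lipase that rises in fasting. It was lower in liver of the cort mice fed the HPD. Its level was 89.5, 146, 112 and 107 CPM in Veh NPD, 77.2, 118 and 59.3 CPM in Veh HPD, 108, 115, 115 and 76.7 CPM in Cort NPD, and 60.8, 27.9, 35.3 and 39.4 CPM in Cort HPD. All 4 Cort HPD libraries were below all Cort NPD libraries, and 1 of them, at 60.8 CPM, lay just above the lowest Veh HPD library. In cort mice the HPD differed from the NPD by -1.35 on the log2 scale, with an SE of 0.24 (adjusted p = 0.0022). The cort effect in HPD mice was -1.06, with an SE of 0.25 (adjusted p = 0.011).

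Elsewhere in liver, Angptl4 differences were not called: cort against veh on the NPD had an interval of -0.59 to 0.33, and the diets in veh mice -0.92 to 0.08. The interaction of diet and cort was -0.93 (SE 0.35, unadjusted p = 0.015 and adjusted p = 0.29 by edgeR), so the diets' dependence on cort did not pass the test. The cort effect on the HPD was no longer called with the left-out liver library back in (-0.84, adjusted p = 0.071) or without Veh HPD replicate 2 (-0.72, adjusted p = 0.090). In both of the called comparisons 5 of 10 endothelial markers were also called lower, with a summed level of 62.5 to 76.6 CPM in Cort HPD against 95.4 to 171 CPM in Cort NPD and 111 to 130 CPM in Veh HPD. Red blood cell markers stood at 5270 to 7620 CPM in Cort HPD and at 1360 to 3540 CPM in the other liver groups, and the part of either in the Angptl4 values was not tested.

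In eWAT, Angptl4 was higher than in liver and even across groups, from 334 to 519 CPM. Group means were 383 ± 22.8 CPM in Veh HPD, 424 ± 40.9 CPM in Veh NPD, 444 ± 56.7 CPM in Cort HPD and 452 ± 87.6 CPM in Cort NPD (SD, n = 4), with overlap between all neighbours. No eWAT comparison called it. The cort effect on the HPD differed between the tissues by -1.30 on the log2 scale, liver minus eWAT (SE 0.29, adjusted p = 0.0072). That call was lost with the left-out liver library back in (-1.05, adjusted p = 0.067) and without liver Veh HPD replicate 2 (-1.0, adjusted p = 0.055).

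Angptl8 (ENSMUSG00000047822, chr9:21835510-21837347, plus strand), a feeding-induced member of the same family as Angptl4, moved the other way with diet in liver of cort mice. It was at 17.3, 14.8, 18.9 and 25.3 CPM in Cort NPD and at 26.7, 30.4, 42.8 and 29.8 CPM in Cort HPD. These groups did not overlap, and the log2 fold change was 0.76 (SE 0.21, adjusted p = 0.036). That call was lost with library totals in place of TMM (0.59, adjusted p = 0.12), with the left-out library back in (0.77, adjusted p = 0.077), and in 6 of 15 fits without 1 liver library (0.60 to 0.80, Cort NPD replicates 1, 2 and 3 and Cort HPD replicates 2, 3 and 4). In veh mice the level was 11.9, 19.9, 20.2 and 17.3 CPM on the NPD and 29.9, 26.5 and 16.4 CPM on the HPD, which overlapped (log2 fold change 0.49, SE 0.23, adjusted p = 0.51).

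In eWAT, Angptl8 was the lowest of the 9 genes, at 22 to 168 counts and 1.15 to 14.2 CPM per library. The veh libraries ran from 1.15 to 6.55 CPM and the cort libraries from 4.11 to 14.2 CPM. The cort effect of 0.97 on the log2 scale in NPD mice (SE 0.45, adjusted p = 0.22) and the similar one in HPD mice (interval 0.12 to 1.88, adjusted p = 0.22) were not called. Without Veh HPD replicate 4, which held 6.55 CPM, the HPD value was 1.49 (adjusted p = 0.046). Angptl8 lies inside Dock6 on the opposite strand. Dock6 had 6523 counts over all libraries and Angptl8 6750, and since the strand setting of the counting is not given in the sources used here, reads of the 2 genes may not be told apart.

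**Figure D4:**
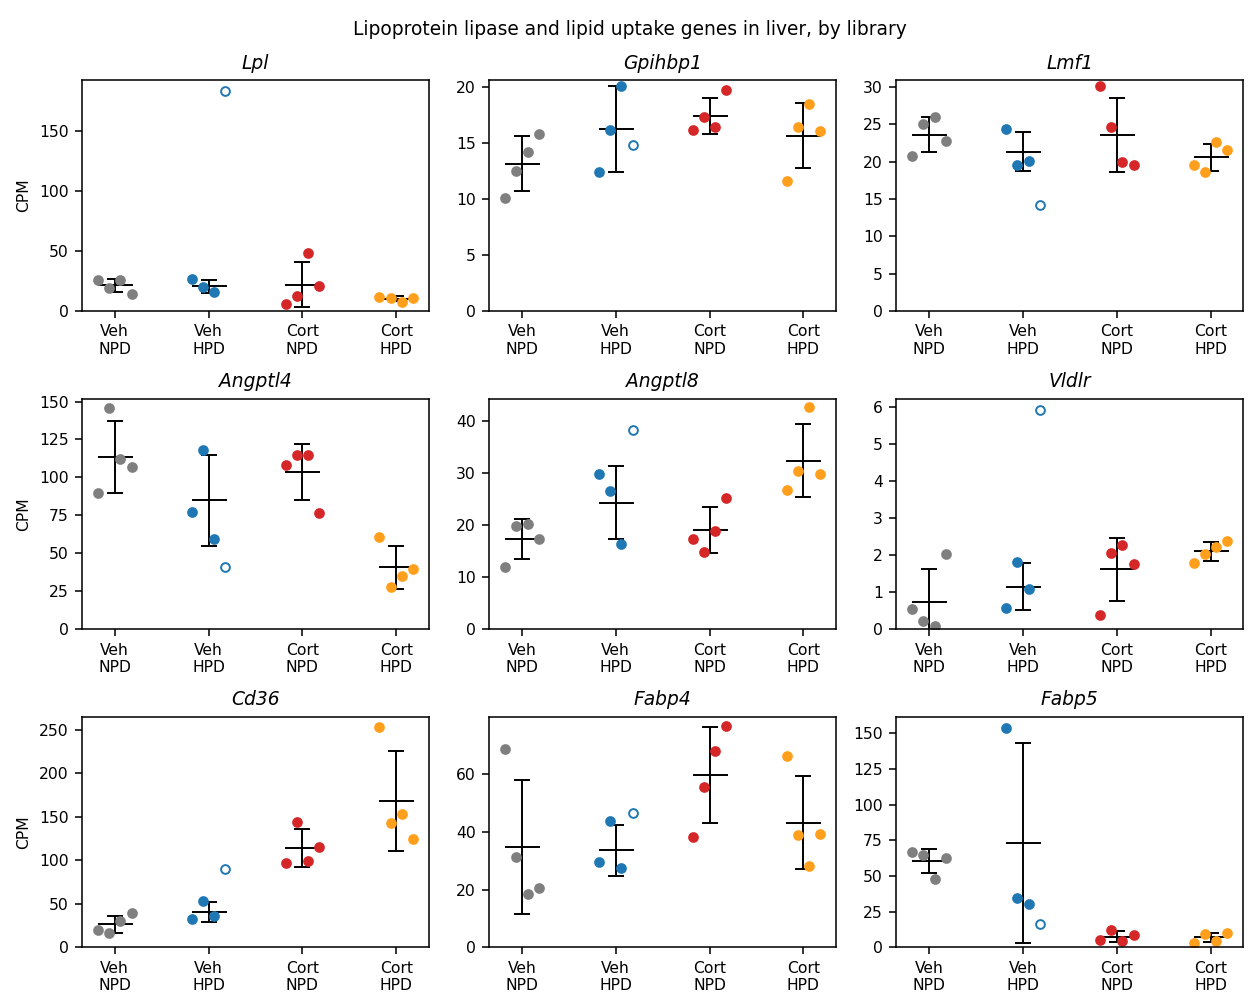
Level of each gene in liver in CPM (linear axes from 0), 1 point per library, with the mean and SD of the fitted libraries in black; the open point is Veh HPD replicate 4, left out of the fits. Cd36 lies at 96.4 CPM or more in every cort library and Fabp5 at 12.3 CPM or less.

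Vldlr (ENSMUSG00000024924, chr19:27216484-27254231, plus strand) encodes the very low density lipoprotein receptor, which binds lipoproteins near the lipase. In eWAT it was at 68.8, 64.4, 72.5 and 52.1 CPM in Veh HPD and at 84.8, 105, 80.8 and 85.5 CPM in Cort HPD, and at 70.6, 88.4, 79.7 and 93.1 CPM in Veh NPD and 89.8, 86.9, 119 and 95.3 CPM in Cort NPD. The groups on the HPD did not overlap and those on the NPD did. The cort effect was 0.46 on the log2 scale in HPD mice (SE 0.14, adjusted p = 0.039). In NPD mice it was 0.24 (interval -0.03 to 0.50, adjusted p = 0.34), and the effects on the diets differed by 0.23 (interval -0.15 to 0.60). Between the diets, Vldlr in veh mice overlapped (-0.36, interval -0.63 to -0.10, adjusted p = 0.42). The call on the HPD was lost with library totals (0.42, adjusted p = 0.072) and in 6 of 16 fits without 1 library (0.38 to 0.50, Veh HPD replicates 1, 2 and 4 and Cort HPD replicates 1, 2 and 4), among them the fit without the library with epididymis markers (0.48, adjusted p = 0.051). The 5 red blood cell markers were all called higher in the same comparison, and their part was not tested.

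Vldlr was near the limit of detection in liver, at 1 to 35 counts and 0.0866 to 2.38 CPM per library. With all fitted libraries, no comparison within liver called it. The log2 fold change of cort was 1.13 on the NPD (SE 0.63, adjusted p = 0.26) and went to 2.43 without Veh NPD replicate 4 (adjusted p = 0.017), the library with 2.03 CPM where the other 3 of its group held 0.0866 to 0.553 CPM. On the HPD, the interval of the cort effect ran from -0.34 to 2.15, without a call.

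Cd36 (ENSMUSG00000002944, chr5:17781690-17888801, minus strand), the fatty acid translocase of the cell membrane, rose with cort in liver on both diets. The Veh NPD libraries held 20.5, 17.0, 30.0 and 38.9 CPM and the Cort NPD libraries 96.4, 144, 99.6 and 115 CPM. The Veh HPD libraries held 32.6, 53.1 and 36.1 CPM and the Cort HPD libraries 253, 143, 153 and 125 CPM. No cort library came down to the level of a veh library on either diet. In NPD mice Cd36 was 4.27-fold higher with cort (log2 2.09, SE 0.27, adjusted p = 4.8e-05). In HPD mice it was 4.16-fold higher (log2 2.05, SE 0.30, adjusted p = 0.00025), and the effects on the 2 diets differed by -0.04 (interval -0.78 to 0.70).

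The order of the liver means of Cd36 was Veh NPD (26.6 ± 9.88 CPM, n = 4), Veh HPD (40.6 ± 11.0 CPM, n = 3), Cort NPD (114 ± 21.6 CPM, n = 4) and Cort HPD (169 ± 57.4 CPM, n = 4; all SD). Within veh and within cort mice the diets overlapped and were not called (log2 0.61, adjusted p = 0.51, and 0.57, adjusted p = 0.21). The left-out Veh HPD library had 89.9 CPM, and with it in the fit the cort effect on the HPD was 1.70 (adjusted p = 0.0041). Cort HPD replicate 1, with 253 CPM, had the lowest TMM factor of the fitted liver libraries (0.754). Without that library the cort effect on the HPD was 1.79, still called. The diet difference in cort mice was then 0.30, not called. Of 8 adipocyte markers, 6 stood at or below 9.4 CPM in every fitted liver library (Plin1, the protein that coats fat droplets, at 0 to 1.69 CPM), Lipe at 10.7 to 23.9 CPM, and Pck1, which hepatocytes also express, at 1080 to 2190 CPM. With Pck1, the sum of the list was 1120 to 2210 CPM in liver and 17700 to 43200 CPM in eWAT. On the NPD, 1 adipocyte marker was called higher with cort in liver (Cidec) and 1 lower (Cfd), and on the HPD none of the 6 tested was called by edgeR. The sum of 8 hepatocyte markers overlapped between Veh NPD (83900 to 119000 CPM) and Cort NPD (109000 to 127000 CPM). On the HPD it was apart, at 74700 to 85900 CPM with veh and 147000 to 258000 CPM with cort. The sum was highest in the library with 253 CPM of Cd36. With cort, 1 of the 8 was called higher and 3 lower on the NPD, and 3 higher and 1 lower on the HPD. The part of these cells in the Cd36 values was not tested.

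In eWAT, Cd36 lay between 1260 and 2250 CPM and did not follow cort. The intervals of the cort effect were -0.25 to 0.24 on the NPD and -0.43 to 0.07 on the HPD. In cort mice, it was at 2060, 2020, 2120 and 1910 CPM on the NPD and at 1730, 1770, 1410 and 1260 CPM on the HPD. These did not overlap, without a call (log2 fold change -0.40, SE 0.13, adjusted p = 0.23). The library with epididymis markers held the 1260 CPM, and without it the value was -0.31, also without a call. Liver minus eWAT, the cort effects differed by 2.14 in NPD mice (SE 0.30, adjusted p = 2.3e-05). In HPD mice they differed by 2.20 (SE 0.32, adjusted p = 3.9e-05).

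Fabp4 (ENSMUSG00000062515, chr3:10204088-10208576, minus strand), the adipocyte fatty acid binding protein, had the highest level of the 9 genes in eWAT, 14400 to 21100 CPM. Its group means there ran from 16200 ± 1070 CPM (Veh HPD) to 18100 ± 1940 CPM (Cort NPD) (SD, n = 4), overlapping throughout, and no eWAT comparison called it. The intervals of the cort effect were -0.18 to 0.31 on the NPD and -0.15 to 0.34 on the HPD. In liver it was at 68.8, 31.2, 18.4 and 20.7 CPM in Veh NPD and at 38.3, 55.6, 68.2 and 76.7 CPM in Cort NPD. Veh NPD replicate 1 was as high as the cort libraries. The log2 fold change of 0.78 (SE 0.41, adjusted p = 0.25) was not called, and went to 1.34 (adjusted p = 0.0094) without it. The HPD groups in liver overlapped, at 27.6 to 43.9 CPM with veh and 28.3 to 66.4 CPM with cort.

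Fabp5 (ENSMUSG00000027533, chr3:10012548-10016607, plus strand), a fatty acid binding protein made by adipocytes, macrophages and epithelia, was the gene called in the most comparisons within tissues. In eWAT it was lower on the HPD. The level was 107, 97.5, 133 and 115 CPM in Veh NPD and 58.6, 49.7, 61.0 and 79.8 CPM in Veh HPD. In cort mice it was 158, 135, 137 and 163 CPM on the NPD and 83.2, 83.9, 82.0 and 64.4 CPM on the HPD. All 8 HPD libraries were below all 8 NPD libraries. In veh mice the diets differed by -0.86 on the log2 scale, HPD minus NPD (SE 0.14, adjusted p = 0.0054). In cort mice they differed by -0.92 (SE 0.14, adjusted p = 0.0013), and by -0.84 without the library with epididymis markers (adjusted p = 0.0054). The red blood cell markers, 5 of 5 called higher on the HPD in cort mice (median log2 fold change 2.04), were not called between diets in veh mice (median 0.41). The part of blood in the Fabp5 values was not tested. A fit of only the veh groups gave -0.85 with an adjusted p of 0.074.

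The cort effect on Fabp5 in eWAT was 0.39 on the log2 scale in NPD mice (adjusted p = 0.085, groups apart) and 0.33 in HPD mice (adjusted p = 0.18, groups overlapping). Neither was called with all libraries, and both were without Veh HPD replicate 4 (0.39, adjusted p = 0.036, and 0.47, adjusted p = 0.024). The order of the means was thus Veh HPD (62.3 ± 12.7 CPM), Cort HPD (78.4 ± 9.34 CPM), Veh NPD (113 ± 15 CPM) and Cort NPD (148 ± 14.4 CPM), each SD with n = 4. The sum of 10 macrophage markers in eWAT was 1260 to 1460 CPM in Veh NPD and 1200 to 1500 CPM in Veh HPD, and none of the 9 tested was called between diets. In Cort NPD it was 1100 to 1400 CPM and in Cort HPD 1240 to 1630 CPM; with cort, 2 of the 9 were called lower on either diet and 1 higher on the HPD.

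**Figure D5:**
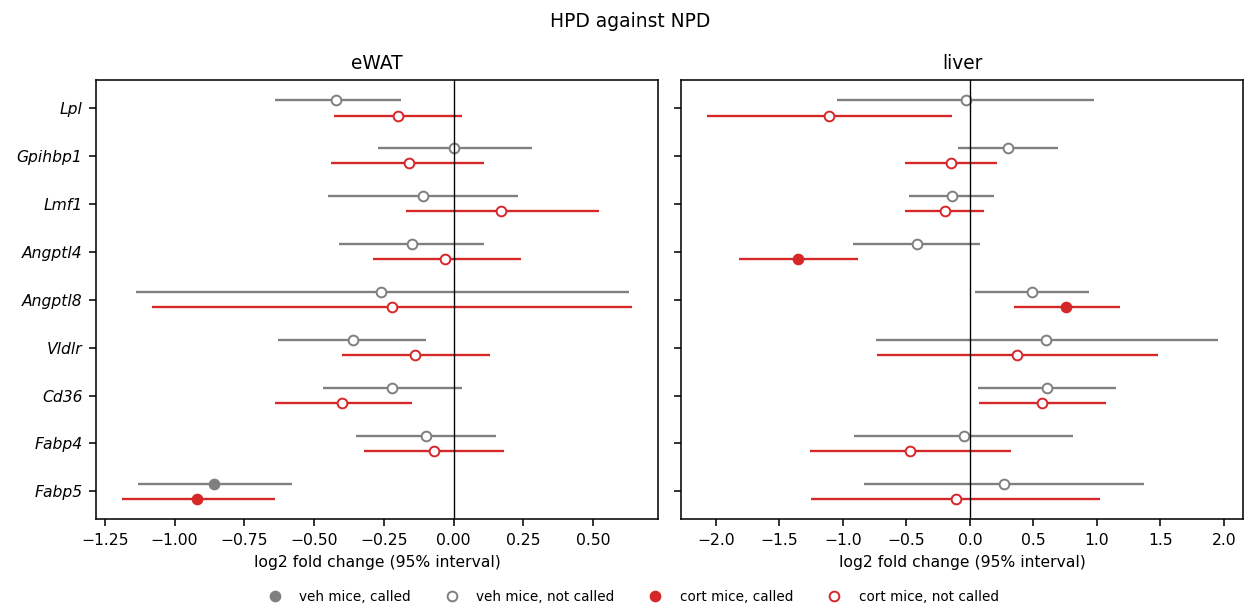
Log2 fold change of HPD against NPD for each gene in eWAT (left) and liver (right), in veh mice (upper point) and cort mice (lower point), with 95% intervals and filled points where called. Called values are Fabp5 in eWAT at -0.86 and -0.92, and, in liver of cort mice, Angptl4 at -1.35 and Angptl8 at 0.76.

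In liver, Fabp5 fell with cort. It was at 66.9, 64.8, 48 and 62.9 CPM in Veh NPD and at 5.0, 12.3, 4.54 and 8.45 CPM in Cort NPD. On the HPD, the veh libraries held 154, 34.8 and 30.1 CPM and the cort libraries 3.39, 9.59, 4.44 and 10.2 CPM. Every cort library was below every veh library, the left-out one (16.1 CPM) included. In NPD mice Fabp5 was 8.03-fold lower with cort (log2 -3.01, SE 0.58, adjusted p = 0.0056). In HPD mice it was 10.5-fold lower (log2 -3.39, SE 0.61, adjusted p = 0.0048). Without Veh HPD replicate 1, at 154 CPM, the value on the HPD was -2.22 (adjusted p = 0.0047). The diets were not called apart in liver, with intervals of -0.83 to 1.37 in veh mice and -1.25 to 1.02 in cort mice.

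Macrophage markers were lower in the same liver comparisons. On the NPD, 6 of 10 were called lower with cort (Adgre1, Clec4f, Csf1r, C1qa, C1qb and C1qc) and 1 higher (Trem2), and on the HPD 3 of 10 were lower (Clec4f, Csf1r and C1qb). Their summed level was 335 to 442 CPM in Veh NPD, 301 to 357 CPM in Veh HPD, 153 to 255 CPM in Cort NPD and 181 to 344 CPM in Cort HPD. Per 100 CPM of that list, Fabp5 was at 14.3 to 18.4 CPM in Veh NPD and 2.35 to 8.0 CPM in Cort NPD, and at 8.83 to 43.1 CPM in Veh HPD and 0.986 to 5.31 CPM in Cort HPD, so that cort and veh libraries were apart on this ratio too. Other markers were lower as well: 6 exocrine pancreas markers summed to 43 to 74.1 CPM in Veh NPD, 33 to 146 CPM in Veh HPD (146 CPM in replicate 1, the library with 154 CPM of Fabp5), 17.4 to 21.9 CPM in Cort NPD and 17.2 to 24.3 CPM in Cort HPD. Cela1, 1 of the 4 of them tested, was called lower on both diets, as was Elovl3, which hepatocytes also express and which was the 1 brown adipocyte marker tested. The part of any of these cells in the Fabp5 values was not tested. Liver minus eWAT, the cort effects on Fabp5 differed by -3.36 in NPD mice (SE 0.56, adjusted p = 0.00061). In HPD mice they differed by -3.76 (SE 0.57, adjusted p = 0.00032).

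Between the tissues, most of the 9 genes were lower in liver than in eWAT. In Veh NPD, 62.7% of all genes were called in a fit over both tissues, and 8 of the 9 members were. The log2 fold change of liver against eWAT was -8.40 for Lpl, -7.92 for Fabp4, -5.75 for Vldlr, -5.21 for Cd36, -2.70 for Gpihbp1 and -0.86 for Angptl4, and the genes higher in liver were Angptl8 at 3.08 and Lmf1 at 1.28. Fabp5 was not called apart (0.14, SE 0.38, adjusted p = 0.76). These values are relative to the TMM scaling over both tissues, under which the median gene was at -0.26; with library totals the median was at -1.28, Fabp5 turned to -0.88 (adjusted p = 0.052) and Lmf1 came to 0.26 and was no longer called (adjusted p = 0.14). For the difference of the cort effects between the tissues, 3 of 9 members were called on the NPD (Gpihbp1, Cd36 and Fabp5; 3.85% of genes) and 3 of 9 on the HPD (Angptl4, Cd36 and Fabp5; 3.12% of genes).

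A further 46 genes of the same pathway, grouped by role, were read in the same fits, 35 of them tested in eWAT and 39 in liver. In eWAT, cort on the NPD raised 4 and lowered 2 of the 35 (7.98% of all genes called). Acsl1, which activates fatty acids, rose by 0.83 on the log2 scale (adjusted p = 0.0032) and Sdc4, a heparan sulphate proteoglycan of the cell surface, by 1.03 (adjusted p = 0.035). Pcsk6, a proprotein convertase that can cleave lipases, fell by 1.28 (83.4 ± 14.5 to 34.4 ± 4.90 CPM, adjusted p = 1.8e-05), and Apoe, an apolipoprotein of triglyceride-rich particles, by 0.53 (adjusted p = 0.039). Apoc3, an inhibitor of lipoprotein lipase, rose by 3.25 from 2.39 ± 1.43 to 22.9 ± 10.1 CPM (SE 0.81, adjusted p = 0.027). The sum of 8 hepatocyte markers was also higher, at 914 to 2150 CPM in Veh NPD and 2080 to 4000 CPM in Cort NPD. Most of it was Cyp2e1, at 853 to 2100 CPM and 2010 to 3930 CPM, above its 579 to 1750 CPM in liver. Alb was at 47.1 to 72.7 CPM in these 8 libraries and the other 6 markers at or below 3.15 CPM. Of the 5 tested, edgeR called none, and the part of hepatocytes in the Apoc3 values was not tested. On the HPD, where 6.09% of all genes were called, 1 of the 35 rose and 1 fell, the latter Pcsk6 (-1.03, adjusted p = 0.00032). By edgeR no pathway gene was called in eWAT for diet in veh mice (3 had an unadjusted p under 0.05, DESeq2 called 0), diet in cort mice (4 and 1) or the interaction (1 and 0).

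In liver, cort on the NPD raised 8 and lowered 4 of 39 pathway genes (12.6% of all genes called, median log2 fold change 0.10, against -0.01 for all genes), and on the HPD it raised 3 and lowered 5 (9.89% of all genes called, median -0.14, against 0.00). Apoc3, the circulating inhibitor, rose by 1.42 in NPD mice and 1.63 in HPD mice (adjusted p = 1.3e-05 and 1.5e-05). Fabp1, the main fatty acid binding protein of hepatocytes, fell by 1.81 and 1.78 (adjusted p = 2.0e-05 and 9.5e-05), from 7780 ± 1100 to 2210 ± 753 CPM on the NPD. Lipc, hepatic lipase, fell by 0.99 on the NPD (adjusted p = 0.0012) and was also called lower on the HPD (-0.79, adjusted p = 0.014). Of the surface and processing proteins, the proteoglycan Sdc1 rose by 0.96 and 0.92 (adjusted p = 0.00029 and 0.0015) and Pcsk6 by 0.80 on the NPD (adjusted p = 0.00084), the opposite sign to eWAT, with a difference between the tissues of 2.12 (SE 0.24, adjusted p = 6.2e-07). On the HPD, Sdc4 fell by 0.97 (adjusted p = 0.00068) and Lrp1, a receptor for lipoprotein remnants, by 0.86 (adjusted p = 0.00099). Sdc4 was also called lower on the NPD (-0.50, adjusted p = 0.039).

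Between the diets in liver, edgeR called no pathway gene in veh mice (4 had an unadjusted p under 0.05, DESeq2 called 1) and none for the interaction (10 and 2), and in cort mice 1 rose and 6 fell on the HPD (5.88% of all genes called, median -0.29, against -0.01 for all genes). Acsl4, which activates long-chain fatty acids, rose by 0.89 (adjusted p = 0.0031). Lrp1 fell by 0.88 (adjusted p = 0.00087), Fabp1 by 1.04 (adjusted p = 0.010), and Cavin1, a coat protein of caveolae, by 0.87 (adjusted p = 0.0060). Calr and Sel1l, which act in protein folding and disposal in the endoplasmic reticulum, where the lipase matures, fell by 0.81 and 0.77 (adjusted p = 0.0076 and 0.013). The split of all called genes in this comparison depended on the scaling, with 52.4% of calls higher on the HPD under TMM and 23.2% under library totals.

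The genes whose log2 CPM ran most closely with each member are given as a description over the 16 eWAT or 15 liver libraries, which share their groups and scaling. In eWAT, Lpl ran with Mgll, monoacylglycerol lipase (Pearson r = 0.85), Gpihbp1 with Mcf2l (r = 0.93), Cd36 with Syap1 (r = 0.91), Fabp5 with Gapdh, a glycolytic enzyme (r = 0.92), and Mpc2, a subunit of the mitochondrial pyruvate carrier (r = 0.91), and Vldlr with Hspb2 (r = 0.89). In liver, Cd36 ran with Ypel5 (r = 0.97), Fabp5 with Cd74, the invariant chain of antigen presentation, and Ncf1, a subunit of the phagocyte oxidase (both r = 0.92), Angptl4 with Acot1, an acyl-CoA thioesterase (r = 0.91), Angptl8 with Ppfibp1 (r = 0.90), and Lmf1 with Edem2, which acts in endoplasmic reticulum quality control (r = 0.92). Among the members themselves, Lpl and Cd36 had r = 0.71 over eWAT libraries, and Cd36 and Fabp5 had r = -0.89 over liver libraries, where both differ between veh and cort.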

How the data were processed

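The authors deposited raw read counts per Ensembl gene for 32 libraries (QuantSeq 3′ mRNA-Seq). The submitters' processing notes name GRCm38/mm10, R 4.0.3 and limma; the aligner and the counter are not given in the sources used here. Counts were used as deposited. Symbols and positions came from a GENCODE annotation of GRCm38 for 47224 of the 47643 gene IDs; 22199 IDs had no count in any library. Each tissue was fitted with 1 mean per group (edgeR 4.0.16, R 4.3.3: filterByExpr with a minimum count of 10 and total of 15, TMM, robust quasi-likelihood test, Benjamini-Hochberg threshold 0.05), and both tissues together in a further fit. 15187 genes were tested in eWAT, 12391 in liver and 16482 over both. CPM were scaled by TMM within a tissue. The SE of an edgeR value was worked back from the test's F statistic. Intervals are the estimate with 95% normal limits, which are narrower than limits that allow for the few libraries per group.

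Liver Veh HPD replicate 4 was left out by the rule that came with the list. The members, pathway lists and markers were chosen with earlier results of these data known. Named genes were all 9 members, up to 6 called pathway genes with the smallest p per comparison, and the closest genes by Pearson r (log2 CPM, prior count 2). Alternatives were RLE factors, library totals, no filter, DESeq2 1.42.0, limma 3.58.1 voom, a replicate block, only the groups compared, all 16 liver libraries, and each library left out. Values of a few genes named by these rules are not reported here. The scripts were tested on simulated counts with 200 changed genes and a set spread. For cort on the NPD, edgeR recovered 61% of them in eWAT and 64% in liver. For the tissue difference of the cort effects on the NPD it recovered 7%. Of the calls, 4.69%, 5.88% and 12.5% were false, in the same order. Of 48 replicate pairs, 0 had identical values.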

Additional observations from a re-analysis of the deposited data

Results flagged for a closer look

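A library stood far from the other 3 of its group in 4 of the 72 sets of 1 gene in 1 group (Dixon's test; chance gives about 1 in 20). Lpl was at 183 CPM in liver Veh HPD replicate 4, the library left out of the fits, and at 7.34 CPM, the lowest of its group, in liver Cort HPD replicate 3. Fabp5 was at 154 CPM in liver Veh HPD replicate 1 (against 34.8, 30.1 and, in the left-out library, 16.1 CPM) and at 64.4 CPM in eWAT Cort HPD replicate 4, the library with epididymis markers.

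The effect of cort differed between liver and eWAT by a test of the difference itself. On the NPD it was 2.14 higher in liver on the log2 scale for Cd36 and 1.04 higher for Gpihbp1, and the difference was -3.36 for Fabp5. On the HPD the difference was 2.20 for Cd36, -3.76 for Fabp5 and -1.30 for Angptl4, which was no longer called with all 16 liver libraries (-1.05, adjusted p = 0.067 by edgeR) or without liver Veh HPD replicate 2 (-1.0, adjusted p = 0.055).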

How the results depend on the processing

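Of the 117 member values, 26 were called. Under the alternatives 30 changed sign, of which 0 were called, the largest at 0.90. Fabp5 between the tissues turned to -0.88 with library totals. Of same-numbered pairs, 2 of 24 in eWAT and 6 of 21 in liver had a correlation of deviations over 0.1. Of pairs with different numbers, 3 of 72 and 16 of 63 did. Of 15 pairs of eWAT with liver of the same group and number, 3 did (median r 0.05). Whether such pairs share a mouse is not given in the sources used here, and the fit over both tissues did not pair them. A replicate block changed 1 member call, Angptl8 between diets in liver of cort mice (0.77, adjusted p = 0.055). It left 1 member called there and 9 genes called for the interaction in eWAT. Of 72 group means, 1 moved by more than 1 SD with library totals (Lmf1 in liver Cort HPD, 18.7 CPM).

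Members called came to 2 with only the groups compared (eWAT, cort on the NPD), to 1 with library totals or only the groups compared (eWAT, cort on the HPD), to 2 with DESeq2 and 0 with only the groups compared (eWAT, diet in veh mice), and to 1 with library totals or all 16 liver libraries (liver, diet in cort mice). Genes called moved by over 1.5 times in these cases; the cause was not tested. In eWAT, diet in veh mice (9 as reported) gave 16 with library totals, 30 without a filter, 126 with DESeq2, 24 with voom and 4 with only the groups compared; diet in cort mice (74 as reported) gave 195 with DESeq2 and 165 with only the groups compared; the interaction (2 as reported) gave 0 with library totals or voom, 4 without a filter and 14 with DESeq2. In liver, cort on the NPD (1565 as reported) gave 998 with all 16 libraries; diet in veh mice (21 as reported) gave 56 without a filter, 113 with DESeq2 and 7 with all 16; diet in cort mice (729 as reported) gave 371 with all 16; the interaction (14 as reported) gave 9 with RLE factors, 23 with library totals, 72 without a filter, 130 with DESeq2, 3 with voom and 1 with all 16. The tissue difference of the cort effects gave 422 with voom on the NPD (635 as reported) and 842 with DESeq2 on the HPD (514 as reported). With library totals, 36.1% of calls were higher for cort on the NPD in eWAT (50.7% with TMM) and 17.8% for cort on the HPD in liver (48%), where the median gene moved to -0.24.

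With 1 library left out, members called ranged from 1 to 2 and genes called from 872 to 1450 (eWAT, cort on the NPD), 1 to 3 and 581 to 1265 (cort on the HPD), 1 and 5 to 64 (diet, veh), 1 and 26 to 124 (diet, cort), and 0 and 0 to 6 (interaction). In liver, in the same order of comparisons, they ranged from 2 to 3 and 1078 to 1963, 2 to 3 and 714 to 1222, 0 and 5 to 40, 1 to 2 and 356 to 757, and 0 and 2 to 39. Between the tissues in Veh NPD they were 8 and 9784 to 10411. For the tissue differences of the cort effects they ranged from 3 to 4 and 453 to 722 on the NPD, and 2 to 3 and 379 to 511 on the HPD. Counts per library reached lowest for Vldlr in liver (1) and Angptl8 in eWAT (22).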
